A study of Mus musculus with 8 samples.

Results

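The 2 whole-liver libraries of a mouse diet study were compared, 1 for ad libitum feeding (AL) and 1 for caloric restriction (CR), out of 8 small RNA libraries in all. They were chosen by their labels, as the libraries made from total liver RNA and not from isolated mitochondria. The mice were male wild-type C57BL/6J animals, 8 weeks old at the start and kept 1 to a cage. AL mice ate freely for 12 weeks, and CR mice received 20% less food in the first week and 40% less over the 11 weeks that followed. For each diet, 3 Trizol RNA samples were mixed in equal amounts before sequencing on Illumina. Each diet is therefore 1 pooled library, so the values below compare 2 pools and have no replicate error, and a value carried by 1 of the 3 mixed samples cannot be told apart from a shift in all of them. The AL pool listed 597 miRNA names and the CR pool 604, together 701 of the 862 names in the series, of which 500 were in both.

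MicroRNAs (miRNAs) are short RNAs cut from hairpin precursors, and both arms of a hairpin (5p and 3p) can give a mature product. A mature miRNA is loaded into an Argonaute protein and pairs with messenger RNAs mainly through its seed, the bases 2 to 8 from the 5′ end, which lowers the stability and translation of the target. In liver, hepatocytes make very large amounts of miR-122, and several other liver miRNAs act on cholesterol, fatty acid and glucose metabolism. Levels are given in RPM, the reads of a name per 1000000 miRNA reads of its library, and ratios are plain ratios of RPM. The brackets behind a ratio give its exact 95% Clopper-Pearson interval conditional on the reads of both pools. The reads carry no molecular identifiers, so these intervals cover counting error only and not the spread between mice.

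The mature sequences of the miRNAs that carried the comparison are shown here from RefSeq (mouse build GRCm38.p6), 5′ to 3′, with the seed in capitals. The first set holds miRNAs that were higher in the CR pool, several of them with a role in glucose or cholesterol metabolism.
miR-802-5p: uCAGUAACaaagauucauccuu
miR-802-3p: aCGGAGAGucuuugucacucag
miR-33-5p: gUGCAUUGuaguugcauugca
miR-96-5p: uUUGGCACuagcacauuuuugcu
miR-183-5p: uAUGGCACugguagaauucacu
miR-429-3p: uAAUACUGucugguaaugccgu
miR-210-3p: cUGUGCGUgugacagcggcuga
miR-22-3p: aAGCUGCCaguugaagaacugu
The second set shares 1 seed, that of the miR-148 and miR-152 family, whose leading member gained the most RPM.
miR-148a-3p: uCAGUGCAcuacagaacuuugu
miR-148b-3p: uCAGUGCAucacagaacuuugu
miR-152-3p: uCAGUGCAugacagaacuugg
The third set holds miRNAs that were lower in the CR pool, with miR-21a-5p as the one that lost the most RPM.
miR-881-3p: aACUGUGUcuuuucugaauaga
miR-331-3p: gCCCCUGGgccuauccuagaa
miR-34a-5p: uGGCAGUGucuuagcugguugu
miR-574-3p: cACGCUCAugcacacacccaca
miR-671-3p: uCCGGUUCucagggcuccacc
miR-149-5p: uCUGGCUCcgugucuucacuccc
miR-335-3p: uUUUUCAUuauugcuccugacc
miR-497a-5p: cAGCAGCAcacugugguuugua
miR-21a-5p: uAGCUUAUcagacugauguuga
Positions below are those of the RefSeq hairpins on GRCm38.p6, matched by name, and not of the authors' own alignment to mm9.

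The AL pool held 2431564 miRNA reads and the CR pool 3242002, so that 1 read was worth 0.411 RPM and 0.308 RPM. The 6 mitochondrial libraries, 3 per diet, held 1070762 to 1577691 reads. In the pools the 3 most abundant names took 55.3% of the AL reads and 55.7% of the CR reads, and the first 10 took 80.5% and 80.8%. The 5 hepatocyte miRNAs (miR-122, miR-192, miR-194, miR-148a and miR-802, 10 arms) summed to 464272 RPM in the AL pool and 553916 RPM in the CR pool. miR-148a-3p alone was at 108300 and 199930 RPM. By total reads 5 of the 10 arms had a CR to AL ratio above 1 and 5 below, with a median log2 ratio of 0.007. Within that sum miR-802-5p was scarce in the AL pool, at 15.6 RPM. Pancreas markers were all below 10 RPM in both pools, at 6.99 and 2.47 RPM for the 4 listed arms together. The muscle and neuron lists each had 1 arm that reached 10 RPM. These were miR-1a-3p at 24.3 and 33.0 RPM and miR-137-3p at 11.1 and 17.3 RPM.

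Most miRNAs differed little between the pools. Of 243 names that reached 10 RPM in 1 pool, which held 99.9% of the reads of each pool, 13 were at least 2-fold higher in the CR pool (5.35%), while 19 were lower by 2-fold or more (7.82%). The remaining 211 lay within 2-fold. By total reads 88 of the 243 ratios were above 1 and 155 below. The median log2 ratio was -0.22, and the range from the 5th to the 95th percentile ran from -1.08 to 1.01. The counts depended on what the levels were scaled to: they were 18 higher and 7 lower with DESeq2 size factors, 18 and 8 with TMM factors, 18 and 9 with upper quartile factors, and 9 and 30 when miR-21a was taken out of the totals. The median log2 ratio moved to 0.05, 0.04, 0.01 and -0.38 under these scalings, so the side of 1 of any ratio between 0.829 and 1.12 changed under at least 1 of them.

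Sequencing depth separated a larger group of names from 1 than the 2-fold limit did. The interval lay wholly above 1 for 54 names (22.2%), wholly below 1 for 106 (43.6%), and held 1 for the other 83. It lay wholly past 2-fold for 4 higher names, miR-802-5p, miR-802-3p, miR-96-5p and miR-22-3p, and for 5 lower ones, miR-881-3p, miR-1948-5p, miR-34a-5p, miR-574-3p and miR-21a-5p. Large ratios were mostly found among scarce miRNAs: of 128 names whose higher level was between 10 and 100 RPM, 10 were past 2-fold higher and 14 lower, against 1 and 1 of the 48 names at 1000 RPM or more. Just past the 2-fold limit, and so counted, were miR-152-5p and miR-187-3p (2.03-fold and 2.06-fold higher) and miR-21a-5p and miR-3068-5p (both 2.02-fold lower). Just short of it were miR-148a-3p and miR-148a-5p (1.85-fold and 1.82-fold higher) and miR-379-5p and miR-425-3p (1.99-fold and 1.98-fold lower).

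**Figure D1:**
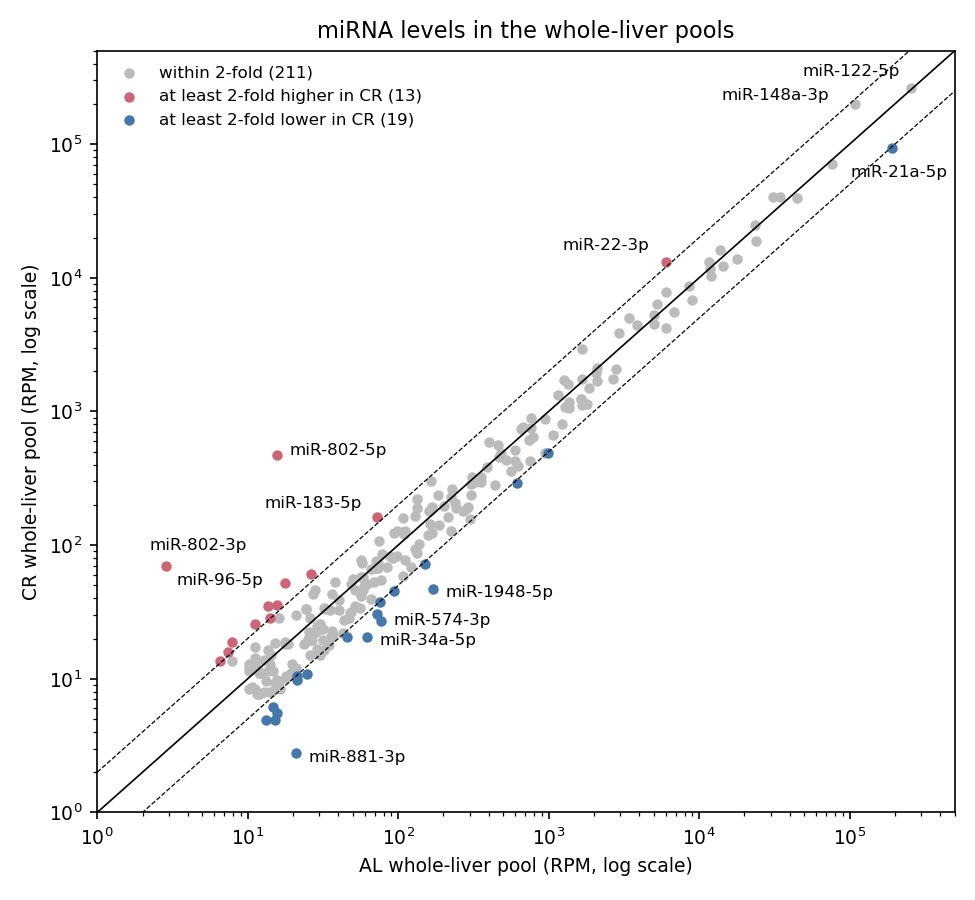
Level of each of the 243 measured miRNA names in the AL pool (x axis, RPM, log scale) and in the CR pool (y axis, RPM, log scale). The solid line marks equal levels and the dashed lines 2-fold differences, with 13 names above the upper line (red) and 19 below the lower line (blue); both arms of miR-802 stand farthest from the line of equal levels.

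Both arms of miR-802 had by far the largest ratios between the pools. miR-802 is a hepatocyte miRNA known to rise in the liver of obese mice and to impair glucose handling. Its hairpin lies at chr16:93369720-93369816 (plus strand), where GENCODE places no gene in the same orientation. The 5p arm stood at 15.6 RPM in the AL pool (38 reads) and 470 RPM in the CR pool (1525 reads), and the 3p arm at 2.88 RPM (7 reads) and 69.4 RPM (225 reads). The arms, which come from 1 precursor but are counted on separate sequences, were 30.1-fold (21.8 to 42.7) and 24.1-fold (11.5 to 60.7) higher, with intervals that overlap. In abundance miR-802-5p went from a minor to a middle-ranking miRNA, far below miR-122-5p in both pools.

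Among the other metabolic miRNAs, miR-33-5p was higher and miR-34a-5p lower in the CR pool. miR-33, which represses the cholesterol exporter Abca1, lies at chr15:82198122-82198190 in an intron of Srebf2, the gene of a transcription factor that turns on cholesterol synthesis. miR-33-5p was at 7.81 RPM in the AL pool and 18.8 RPM in the CR pool, 2.41-fold higher (1.42 to 4.27) from 19 and 61 reads. miR-34a-5p, a miRNA induced by p53 that represses the deacetylase Sirt1, was at 61.7 RPM in the AL pool and 20.7 RPM in the CR pool, 2.99-fold lower (2.22 to 4.04). Its relative miR-34c-5p stood at 13.6 and 11.4 RPM, a ratio of 0.84 whose interval of 0.51 to 1.39 holds 1. The list of 19 lipid and glucose miRNAs had 29 measured arms, of which 3 were at least 2-fold higher (both miR-802 arms and miR-33-5p) and 1 lower (miR-34a-5p), beside 5.35% and 7.82% of all measured names; the 2 miR-802 arms come from 1 hairpin. The median log2 ratio over that list was 0.05, beside -0.22 over all measured names.

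The other abundant members of the metabolic list lay within 2-fold by total reads. miR-122-5p, the dominant hepatocyte miRNA and a regulator of cholesterol synthesis, was at 254251 RPM in the AL pool and 262739 RPM in the CR pool. That ratio of 1.03 (1.03 to 1.04) is precise by counting, yet it lay below 1 when miR-21a was left out of the totals. The insulin-sensitivity miRNAs miR-103-3p and miR-107-3p had ratios of 0.74 and 0.97, the latter above 1 with DESeq2, TMM or upper quartile factors. miR-378a-3p, encoded in the mitochondrial biogenesis gene Ppargc1b, was at 5988 and 4220 RPM, 0.70 of its AL level (0.69 to 0.72). The other arm of that hairpin, miR-378a-5p, was at 109 and 121 RPM, a ratio of 1.11 (0.95 to 1.30). miR-29b-3p, a repressor of collagen genes, had the largest ratio of the miR-29 family at 1.64 (1.44 to 1.88), against 1.20 for miR-29a-3p and 1.28 for miR-29c-3p, and 3 of the 4 measured arms of the family were above 1 under every scaling.

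The largest differences in share between the pools were those of 2 abundant miRNAs. miR-21a-5p, a miRNA induced in proliferating, inflamed and fibrotic tissue, made up 19.0% of the AL reads (95% Clopper-Pearson interval 19.0% to 19.1%) and 9.44% of the CR reads (9.41% to 9.47%), from 190493 and 94378 RPM. miR-148a-3p, a hepatocyte miRNA that represses the LDL receptor, made up 10.8% (10.8% to 10.9%) and 19.99% (19.95% to 20.04%), from 108300 and 199930 RPM. The differences, -9.61 and 9.16 percentage points, were of nearly the same size, and the 2 miRNAs exchanged ranks 2 and 3. The next largest gains were 9021 RPM for let-7f-5p, 8488 RPM for miR-122-5p and 7017 RPM for miR-22-3p, and the next largest losses were -6129 RPM for miR-192-5p and -4953 RPM for miR-194-5p. Counting 6 scalings and the levels with 1 RPM added as 7 settings, miR-21a-5p was at least 2-fold lower in 3 of 7 and miR-148a-3p at least 2-fold higher in another 3 of 7, since a scaling that brings one nearer to 1 takes the other away from it. The hairpin of miR-21a lies at chr11:86584067-86584158 within an exon of Vmp1, and that of miR-148a at chr6:51269812-51269910 with no gene on its strand. In the mitochondrial libraries miR-148a-3p was at 104173, 72352 and 127524 RPM under AL and 102379, 176362 and 85292 RPM under CR, so there the groups overlapped.

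miR-22-3p was the only miRNA above 1000 RPM that was at least 2-fold higher by total reads. It was at 6045 RPM in the AL pool and 13062 RPM in the CR pool, 2.16-fold higher (2.12 to 2.20), and under 2-fold when miR-21a was left out of the totals. Its hairpin lies at chr11:75463716-75463810 in an exon of its host transcript Mir22hg. After miR-148a-3p, the next in this class was miR-340-5p, which was at 1679 and 2921 RPM, 1.74-fold higher (1.68 to 1.81).

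Several scarcer miRNAs with a known setting of their own were 2-fold to 3-fold higher in the CR pool. miR-96-5p was at 17.7 RPM in the AL pool and 52.4 RPM in the CR pool, 2.97-fold higher (2.11 to 4.25). miR-183-5p, from the same precursor cluster, was at 72.8 and 163 RPM, 2.24-fold higher (1.89 to 2.67), whereas miR-182-5p of that cluster had a ratio of 1.01. These 3 hairpins lie within chr6:30165918-30169737 on the minus strand and are best known from sensory cells. miR-210-3p, which is induced by hypoxia through Hif1a, was at 15.6 and 35.8 RPM, 2.29-fold higher (1.57 to 3.40). miR-30d-3p was at 13.6 and 35.2 RPM, 2.59-fold higher (1.75 to 3.94). miR-184-3p and miR-187-3p rested on 18 and 51 reads and on 16 and 44 reads, and were 2.13-fold and 2.06-fold higher with lower bounds of 1.22 and 1.14, each past 2-fold in 5 of 7 settings.

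Some of the higher miRNAs belong to cell types other than hepatocytes, and their relatives did not all stand with them. miR-451a, a red cell miRNA that Argonaute2 cuts without Dicer, was at 26.3 RPM in the AL pool and 60.5 RPM in the CR pool, 2.30-fold higher (1.72 to 3.10). The other 5 listed erythroid arms, of miR-144 and miR-486, were under 10 RPM in both pools and the interval of each of their ratios held 1. miR-429-3p, of the epithelial miR-200 family that marks bile ducts in liver, was at 11.1 and 25.6 RPM, 2.31-fold higher (1.48 to 3.70). Its cluster partners were 1.22-fold higher for miR-200a-3p (462 and 564 RPM) and at a ratio of 0.67 for miR-200b-3p (269 and 179 RPM), and the 4 measured bile duct arms summed with the others to a ratio of 1.03, which changed side with the scaling.

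**Figure D2:**
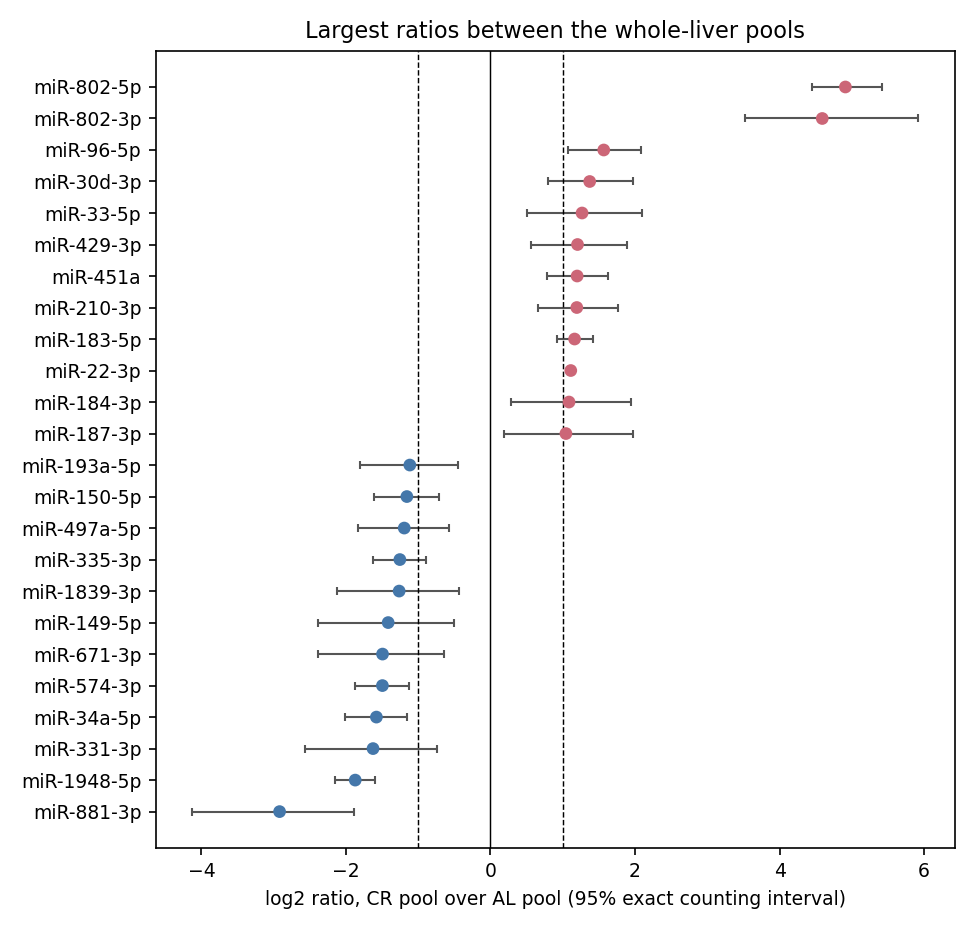
Log2 ratio of the CR pool over the AL pool (x axis) for the 12 largest ratios in each direction among names with at least 30 reads, with bars for the exact 95% counting interval. The solid line marks equal levels and the dashed lines 2-fold; the 2 arms of miR-802 lie beyond 4 and miR-881-3p near -3, while most other bars cross a 2-fold line.

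On the lower side the largest ratio belonged to miR-881-3p, from a large X-linked cluster known mainly from testis. It was at 20.97 RPM in the AL pool (51 reads) and 2.78 RPM in the CR pool (9 reads), 7.56-fold lower (3.68 to 17.5). The cluster holds 19 RefSeq hairpins within chrX:66776757-66839125 on the minus strand, and its other members are near the detection limit. All 18 of its names that either pool listed were lower in the CR pool, with 8 of them listed there at 0. Over all names 155 of 243 measured ones were below 1, and 97 of the 701 pool names were at 0 in the CR pool. Only miR-881-3p of the cluster reached 10 RPM, and several of its other names had intervals that held 1. Together the 18 names had 141 reads in the AL pool and 28 in the CR pool, 58.0 and 8.64 RPM. Without miR-881-3p the sum was 90 and 19 reads, 6.32-fold lower (3.82 to 11.0). Several members are near-identical copies, such as the miR-465 hairpins, among which the authors' counting may have divided reads. In the mitochondrial libraries the same sum was 60.0, 41.1 and 34.4 RPM under AL and 23.3, 83.0 and 25.2 RPM under CR, so there the groups overlapped and 1 CR library was the highest of the 6.

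The other lower miRNAs rested on more varied depths. miR-1948-5p was at 171 RPM in the AL pool and 46.9 RPM in the CR pool, 3.66-fold lower (3.03 to 4.43). miR-574-3p, encoded in an intron of Fam114a1, was at 76.5 and 27.1 RPM, 2.82-fold lower (2.18 to 3.67). miR-335-3p, encoded in an intron of the imprinted gene Mest, was at 72.8 and 30.5 RPM, 2.38-fold lower (1.85 to 3.08). Each of these 3 had more reads than the next ones, and miR-1948-5p and miR-574-3p were past 2-fold in each of 7 settings, miR-335-3p in 5. miR-331-3p, in an exon of Vezt, was at 15.2 and 4.94 RPM, 3.08-fold lower (1.67 to 5.94). miR-671-3p, in an exon of Chpf2, was at 15.6 and 5.55 RPM, 2.82-fold lower (1.57 to 5.24). miR-149-5p, in an intron of Gpc1, was at 13.2 and 4.94 RPM, 2.67-fold lower (1.42 to 5.20). For these scarcer names the lower bounds reached under 2-fold, although their ratios were past 2-fold in each of the 7 settings.

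Other lower miRNAs crossed the 2-fold limit with some scalings only. miR-497a-5p, miR-150-5p and miR-193a-5p, at 24.7 and 10.8 RPM, 46.1 and 20.7 RPM and 21.4 and 9.87 RPM, were 2.29-fold, 2.23-fold and 2.17-fold lower, each in 4 of 7 settings. miR-1839-3p was 2.40-fold lower (1.35 to 4.38) from 36 and 20 reads, in 6 of 7. Among better sampled names miR-23a-3p was at 621 and 293 RPM, 2.12-fold lower (1.95 to 2.30), and miR-99b-5p at 992 and 488 RPM, 2.04-fold lower (1.91 to 2.17). The list was completed by miR-592-5p, miR-320-3p, miR-378b and miR-3068-5p, which were 2.08-fold, 2.08-fold, 2.04-fold and 2.02-fold lower. miR-320 is made without Drosha, and miR-484, made the same way, was at 112 and 76.8 RPM, a ratio of 0.69 (0.58 to 0.82).

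Grouping names by seed shows how much of a shared targeting potential each pool held. Of 35 seed groups with at least 1000 RPM in 1 pool, 3 were higher in the CR pool by 1.5-fold or more (8.57%), and 6 were lower by that much (17.1%). The higher ones were the miR-148 and miR-152 group at 111298 and 203300 RPM, 1.83-fold higher (1.82 to 1.83), and the single-member groups of miR-22-3p and miR-340-5p. In the first of these miR-148a-3p held 97.3% of the AL level, and its relatives moved less, with ratios of 1.21 for miR-148b-3p and 1.06 for miR-152-3p, the latter below 1 when miR-21a was left out of the totals. The lower groups were those of miR-21a-5p, of miR-23b-3p with miR-23a-3p (1179 and 651 RPM, 1.81-fold lower), of miR-125b-5p with miR-125a-5p and miR-351-5p (1861 and 1132 RPM, 1.64-fold lower), of miR-140-3p (1.59-fold lower), of miR-203-3p (1.53-fold lower) and of miR-3074-5p (a ratio of 0.67). The reads of miR-3074-5p nearly equal those of miR-24-3p on the opposite strand (4061 and 4103 in the AL pool, 3605 and 3721 in the CR pool), so the 2 names cannot be told apart without strand.

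**Figure D3:**
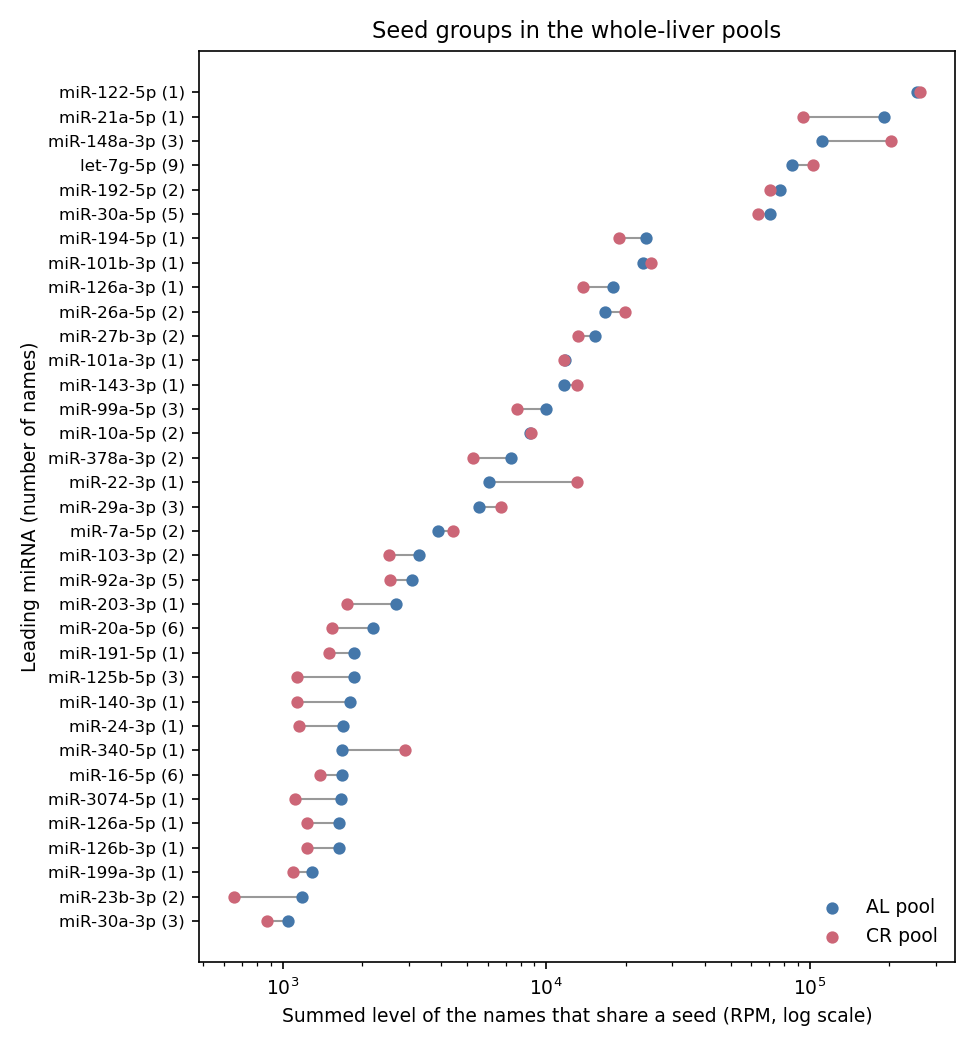
Summed level of all names that share a seed in the AL pool (blue) and the CR pool (red), in RPM on a log scale, for the 35 groups with at least 1000 RPM in 1 pool, ordered by AL level and labelled by the leading miRNA with the number of names. The points of miR-21a-5p and of the miR-148a-3p group lie far apart in opposite directions, and the miR-122-5p points nearly coincide.

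Within a seed group the members often went different ways. Of 26 groups with 2 or more measured names, all members were above 1 in 4 and below 1 in 12 by total reads, and 10 had members on both sides. The let-7 family, developmental repressors of growth genes, summed over its seed to 85740 RPM in the AL pool and 102526 RPM in the CR pool, 1.20-fold higher (1.19 to 1.20). Its members ran from a ratio of 0.63 for let-7e-5p (443 and 281 RPM) to 1.36 for let-7d-5p (1266 and 1726 RPM), and let-7e-5p and let-7d-5p kept these sides of 1 under each of the 6 scalings. The miR-30 group was at 70315 and 63326 RPM, a ratio of 0.90 that changed side with the scaling, with miR-30c-5p at 0.76 and miR-30e-5p at 1.46. In the group of miR-16-5p, which restrains the cell cycle, 5 of 6 members were below 1 by total reads, from 0.44 for miR-497a-5p to 0.92 for miR-322-5p, and miR-15a-5p stood at 1.11.

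Neighbouring hairpins, which are usually cut from 1 transcript, shared their direction in some clusters and not in others. The clusters described at the end of this paragraph were lower in sum, and 155 of all 243 measured names were below 1 by total reads. Other clusters had all measured arms above 1 by total reads. Among them were miR-182, miR-96 and miR-183 (3 arms, summed ratio 1.41) and let-7f-2 with miR-98 (3 arms, 1.29), where let-7f-5p has another hairpin as well. Still others had measured arms on both sides of 1, such as that of miR-429, miR-200a and miR-200b. Whether a shared transcript bears on any of these ratios was not tested. Among the RefSeq hairpins joined here, let-7e and miR-125a (chr17:17830352-17830879) were lower together, with a summed ratio of 0.59 (0.56 to 0.63) and members at 0.63 and 0.57. Hairpins that RefSeq did not place there are not in this sum, and miR-99b-5p, at a ratio of 0.49, is not part of it. The pair miR-497 and miR-195a (chr11:70234717-70235135) had a summed ratio of 0.55 (0.47 to 0.64) over 3 measured arms from 0.44 to 0.67. Neither of these sums changed side under the 6 scalings, and miR-25, miR-93 and miR-106b, encoded in the replication gene Mcm7, held their sum below 1 as well at 0.62 (0.59 to 0.64). Inside that last cluster, however, miR-25-3p was at 0.52 and miR-106b-5p at 1.01 of its AL level.

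The arms of 1 hairpin did not always keep their proportion. Among 54 hairpins with at least 20 reads of each arm in each pool, the 5p to 3p read ratio differed by at least 2-fold between the pools in 12 (22.2%), and its interval held 1 in 27. This measure does not depend on the scaling of the libraries. The best sampled of the 12 was miR-455, whose 5p share of both arms was 71.8% in the AL pool and 85.1% in the CR pool, a 2.24-fold change of the arm ratio (1.97 to 2.55). Its arms had 1856 and 729 reads in the AL pool and 2893 and 508 in the CR pool. For miR-151 the 5p share was 20.1% and 37.4%, a 2.38-fold change (1.85 to 3.06), and miR-151-5p shares most of its sequence with miR-28a-5p. For miR-335 it was 41.6% and 60.1% (2.11-fold, 1.48 to 3.02), and for miR-574 27.1% and 45.3% (2.24-fold, 1.44 to 3.46), so the 3p arms of both were the lower ones. miR-425 and miR-1839 changed the same way, 2.16-fold (1.24 to 3.78) and 2.00-fold (1.12 to 3.67).

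In the other 6 hairpins the balance moved towards the 3p arm. The change was 3.01-fold (2.02 to 4.57) for miR-30d, whose 3p arm is rare, with 33 reads in the AL pool and 114 in the CR pool beside 29291 and 33662 of the 5p arm. It was 2.61-fold (1.34 to 5.08) for miR-193a, 2.41-fold (1.40 to 4.12) for miR-676 and 2.09-fold (1.49 to 2.92) for miR-148b. For miR-21a it was 2.08-fold (1.38 to 3.15): miR-21a-5p had a ratio of 0.50, whereas miR-21a-3p, with 43 and 59 reads, had a ratio of 1.03 (0.68 to 1.56). For miR-99b it was 2.00-fold (1.33 to 3.03). Thus the difference seen in miR-21a-5p was not found in the other arm of its hairpin at this depth.

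**Figure D4:**
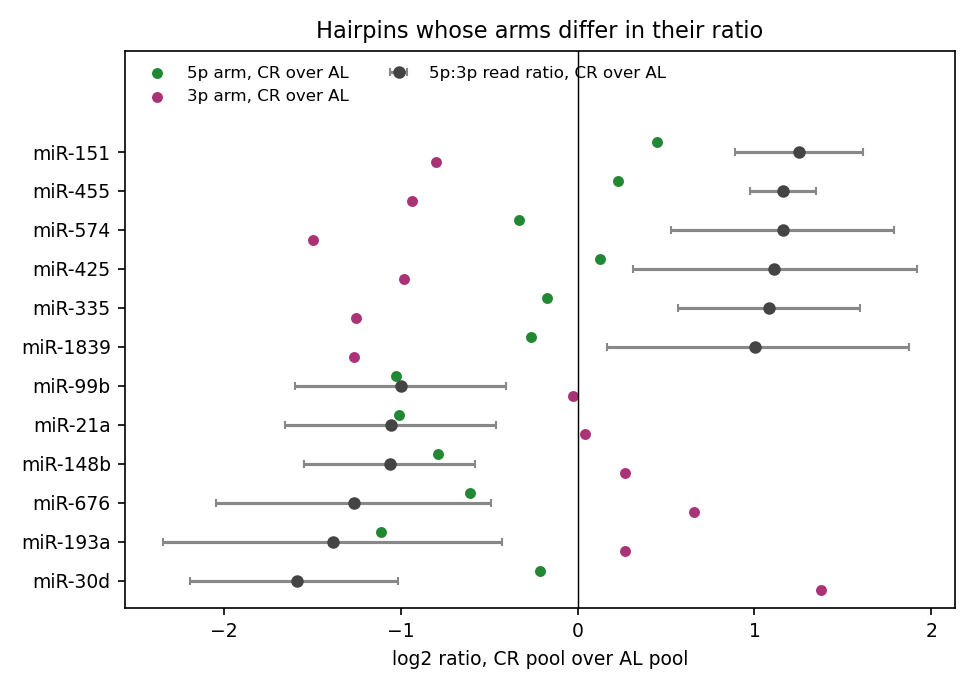
Log2 ratio of the CR pool over the AL pool for the 5p arm (green), the 3p arm (purple) and the 5p to 3p read ratio (grey, with its exact 95% counting interval) of the 12 hairpins whose arm ratio differed at least 2-fold between the pools. In the upper 6 hairpins the balance lies towards the 5p arm in the CR pool, in the lower 6 towards the 3p arm.

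Marker miRNAs of other liver cells were described beside these values. All 7 measured leukocyte and Kupffer cell arms of 11 listed were below 1 by total reads, and 5 to 7 of them under the 6 scalings, with a summed level of 1200 RPM in the AL pool and 837 RPM in the CR pool, a ratio of 0.70 (0.66 to 0.74) and a median log2 ratio of -0.46. Over all measured names 155 of 243 were below 1 by total reads, and the median log2 ratio was -0.22. The arms included the inflammation-induced miR-146a-5p at 630 and 390 RPM, the myeloid miR-223-3p at 32.1 and 16.3 RPM and the lymphocyte miR-150-5p. Nearer to 1 were miR-142a-3p at 0.97 (0.79 to 1.19) and miR-142a-5p at 0.87 (0.77 to 0.97), both above 1 under some scalings. The interval of miR-155-5p, with a ratio of 0.73 (0.43 to 1.23), also held 1. The endothelial miR-126a-3p was at 17969 and 13744 RPM, a ratio of 0.76 (0.75 to 0.78) that stayed below 1 under each scaling. The stellate cell and fibroblast arms were split, 4 above 1 and 4 below by total reads, with a summed ratio of 1.08 that changed side with the scaling. In RNA from whole tissue, fewer cells of a type and less of the miRNA per cell cannot be told apart, and the part of cell composition in any ratio above was not tested.

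Fibrosis and ageing lists were led by single members. The 12 measured arms of the fibrosis list summed to a ratio of 0.52, which was mostly miR-21a-5p, since only that arm of the 12 was at least 2-fold lower and 4 were above 1 by total reads. The 13 measured ageing and senescence arms had a median log2 ratio of -0.08, with miR-22-3p at least 2-fold higher and miR-34a-5p and miR-21a-5p at least 2-fold lower. Of the p53-induced list, 7 of 9 measured arms were below 1 by total reads, and 5 to 7 under the 6 scalings, beside 155 of all 243 measured names by total reads and 112 to 179 under the scalings. The imprinted Dlk1-Dio3 region was low in both pools: 3 of its 37 listed arms reached 10 RPM, miR-379-5p, miR-127-3p and miR-411-5p, all below 1, and its 37 arms summed to 114 and 90.4 RPM.

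Names listed in 1 pool alone were all scarce. There were 97 in the AL pool, with at most 7 reads, and 104 in the CR pool, with at most 13 reads. A count of 0 allows up to 3 reads, or 1.23 RPM in the AL pool and 0.925 RPM in the CR pool. With 3 reads in place of the 0, miR-470-5p, of the X-linked cluster of miR-881, was 3.11-fold lower in the CR pool (7 reads and 0). On the same basis the unannotated candidate novel_368 was 3.25-fold higher (0 and 13 reads). These folds leave out the counting error of the 7 and 13 reads and are not lower bounds. The exact interval of miR-470-5p reached up to a ratio of 0.52.

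The mitochondrial libraries, with 3 per diet, give the same contrast in a second kind of RNA from livers under these diets. The labels do not say whether they came from separate animals or from the mice of the pools, and p-values here speak only of how these 6 libraries vary. Tested with limma-trend on log2(RPM + 1), 2 of 391 names passed an adjusted p of 0.05 (0.512%), miR-802-5p upwards (0.256%) and miR-199a-3p downwards (0.256%), and 52 had an unadjusted p below it. No name passed without AL replicate 2, CR replicate 1 or CR replicate 2, and 6 passed without AL replicate 1. The downward call of miR-199a-3p was also lost without AL replicate 3 or CR replicate 3, and so in 5 of the 6 fits that left out 1 library. Among the 13 names at least 2-fold higher in the CR pool, the mitochondrial fold change was above 0 for 12, against 32.1% of all 243 measured names. For 5 of the 13 all 3 CR libraries were above all 3 AL libraries, against 4.53% of measured names. The 13 include both arms of the miR-802 hairpin, and miR-96-5p and miR-183-5p of 1 cluster, so they are not 13 separate cases. Among the 19 lower names 13 were below 0, which is close to the 67.9% of all measured names, and for 7 of them all CR libraries were below all AL libraries, against 18.1%.

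miR-802-5p was at 124, 35.6 and 19.0 RPM in the AL mitochondrial libraries and 419, 441 and 237 RPM in the CR ones. The groups did not overlap, and the log2 fold change was 2.97 ± 0.51 (SE, n = 3 per diet, limma-trend adjusted p = 0.00768). It lost the threshold without AL replicate 2, CR replicate 1 or CR replicate 2, with adjusted p of 0.133, 0.118 and 0.0714, and was past it in the other 10 of 13 alternatives. miR-802-3p was at 21.2, 8.22 and 2.11 RPM under AL and 48.3, 25.99 and 52.3 RPM under CR, a log2 fold change of 2.27 ± 0.58 that did not pass (limma-trend adjusted p = 0.0736) but passed in 5 of 13 alternatives. The log2 difference between the pools was larger than that between the mitochondrial groups for both arms, but the interaction of diet and RNA source did not pass for either, with a log2 difference of 1.85 ± 1.02 and 1.92 ± 1.18 (SE, limma-trend adjusted p = 0.998 for both).

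Among the 12 largest pool ratios in each direction, the other names whose mitochondrial groups did not overlap mostly lay on the side seen in the pools. miR-96-5p was at 2.77, 7.31 and 9.84 RPM under AL and 24.1, 19.0 and 20.5 RPM under CR. miR-22-3p was at 15734, 14338 and 15139 RPM under AL and 28517, 16489 and 28483 RPM under CR. miR-34a-5p was at 127, 60.3 and 74.5 RPM under AL and 34.97, 38.0 and 27.1 RPM under CR, and miR-574-3p at 106, 132 and 90.0 RPM and 61.6, 71.0 and 52.3 RPM. These and miR-187-3p, miR-497a-5p, miR-1839-3p and miR-149-5p had no overlap and the direction of the pools, with limma-trend adjusted p between 0.108 and 0.499. miR-150-5p was the exception among these largest ratios: it was 2.23-fold lower in the CR pool, yet at 18.5, 17.3 and 12.6 RPM in AL mitochondria and 20.0, 73.5 and 25.2 RPM in CR mitochondria. Among the listed miRNAs with smaller pool ratios, miR-145a-3p, miR-148b-3p, miR-152-3p and let-7c-5p were at pool ratios of 1.30, 1.21, 1.06 and 1.05, and had all CR mitochondrial libraries below all AL ones; the last 2 pool ratios changed side with the scaling.

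**Figure D5:**
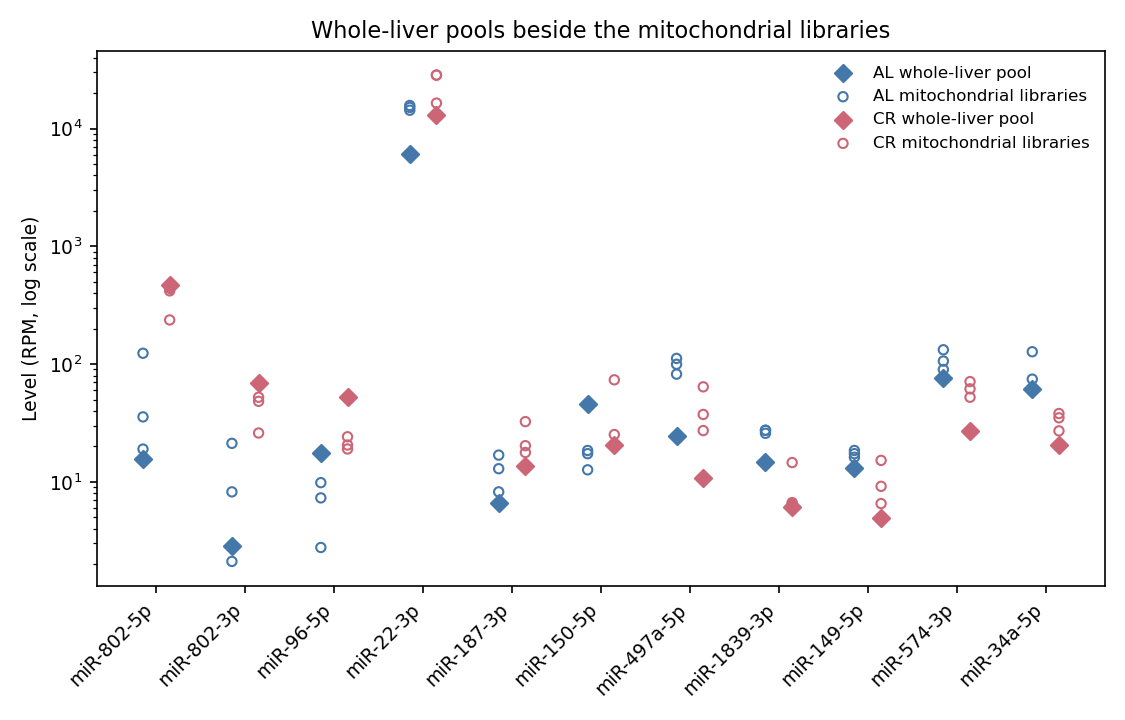
Level in RPM (log scale) of the 11 names among the largest pool ratios whose 3 CR and 3 AL mitochondrial libraries did not overlap. Diamonds are the whole-liver pools and open circles the single mitochondrial libraries, blue for AL and red for CR; the colours are ordered the same way in both kinds of RNA for 10 names and oppositely for miR-150-5p.

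Whether the diet ratio differed between the pools and the mitochondria was tested for all names in 1 model over the 8 libraries, in which each pool is assumed to vary like the mitochondrial libraries. None of 417 names passed with limma-trend (0%), with edgeR's quasi-likelihood test or with DESeq2, and 5, 18 and 8 names had an unadjusted p below 0.05. Among the names described here, miR-881-3p, miR-150-5p and miR-199a-3p were among those 5 of limma-trend, each with an adjusted p of 0.998. miR-199a-3p was at 1288 RPM in the AL pool and 1089 RPM in the CR pool, and at 2234, 1532 and 1900 RPM in AL mitochondria and 689, 574 and 544 RPM in CR mitochondria. With 1 pool per diet this design has little means to tell the 2 contrasts apart, and a p that misses the threshold does not show that they are alike.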

How the data were processed

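Small RNA libraries of mouse liver were analysed as the authors deposited them, 1 table per library. Bowtie, of unstated version, and the build mm9 are named per the submitters' processing notes. How reads were assigned to names is not given in the sources used here. The deposited values are RPM (the column headers say tpm): each column sums to 1000000, and every value is a whole multiple of the smallest (100% within 0.01 read), so reads were recovered by division. A name missing from a table was taken as 0.

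Names with at least 10 RPM in 1 pool were compared as plain ratios with exact 95% intervals and no p-value, and a difference of at least 2-fold was counted. Named miRNAs followed a rule: the 12 largest ratios each way with at least 30 reads, the 12 most abundant in each pool, the 5 largest differences in RPM each way, list members with the most reads, seed groups past 1.5-fold, hairpins past 2-fold in arm ratio, and names in 1 pool alone. Further names were given after their values were seen. The members and the 31 lists were chosen with earlier results of these data known. Of 243 measured names 205 matched a RefSeq mature sequence exactly, and seed groups use the mature sequences of the deposited tables. Clusters join RefSeq hairpins within 10 kb on 1 strand, and host genes are from GENCODE M21.

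Mitochondrial libraries were compared with limma-trend (limma 3.58.1, R 4.3.3) on log2(RPM + 1), names with at least 1 RPM in 3 libraries, Benjamini-Hochberg adjusted, as was the interaction of diet and RNA source over 8 libraries. edgeR 4.0.16 and DESeq2 1.42.0 on recovered reads, other scalings, filters and left-out libraries were alternatives. The fits were tested on simulated data. Python 3.11.15 with pandas 2.3.3, scipy 1.17.1 and matplotlib 3.10.9 was used.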

Additional observations from a re-analysis of the deposited data

How the results depend on the processing

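With the 13 higher and 19 lower names of the pools as the reference, a minimum of 1 RPM gave 52 higher and 67 lower, and a minimum of 50 RPM 6 and 10. The lower count became 7 with DESeq2 size factors, 8 with TMM factors, 9 with upper quartile factors and 30 without miR-21a in the totals. Leaving out 6 names antisense to another with near-equal reads, an alternative chosen after seeing the data, left 237 measured names and both counts as they were. No named ratio of a called name changed direction under any of these scalings, and none could. Only ratios between 0.829 and 1.12 can change side under them, so this is no check of the called names. The count for the mitochondrial comparison was 2 in the main analysis, 10 with no filter, 5 with TMM-scaled values, 7 with edgeR, 11 with DESeq2 and 0 to 6 when 1 library was left out (0 without AL replicate 2, CR replicate 1 or CR replicate 2, 1 without AL or CR replicate 3, and 6 without AL replicate 1). The causes of these moves were not tested. The interaction count of 0 became 129 with no filter, where limma reported names with no variance, and stayed 0 in the other alternatives. With the replicate block the counts were 3 and 0. Same-numbered libraries had deviations correlated at 0.36, 0.08 and 0.11, and AL replicate 2 correlated better with CR replicate 3 (0.22). With 3 libraries per diet these values cannot show whether the numbers pair the libraries. The main analysis treated them as unpaired. Depth limits names under about 10 RPM, where 3 reads are 1.23 RPM in the AL pool and 0.925 RPM in the CR pool.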
